A study of Mus musculus with 12 samples.

Results

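The comparison described here was between control lungs of mice 6 months old and control lungs of mice 4 months old. It used 6 of the 12 arrays of the series, 3 at each age, chosen by the control label and the age in the sample titles. The remaining 6 arrays came from smoke-exposed mice of the same ages, 3 each. All mice were female C57BL/6N, an inbred laboratory strain, and were housed free of specific pathogens. The control mice carried no stated allele and received no cigarette smoke, and the labels do not say how else they were handled. The titles call the samples biological replicates, without saying from how many litters, cages or days they came. In the main fit, p-values therefore measure the spread between these samples within groups, pooled over all 12 arrays. Each array read RNA from whole lung tissue on Illumina beads. In such bulk samples, fewer cells of a type and less RNA per cell cannot be told apart.

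By 4 months a mouse is sexually mature and its alveoli are formed, and 6 months is still young adulthood. Elastin and fibrillar collagen are laid down chiefly while the lung grows, and their transcripts are lower in adult lung. Transcripts of granulocytes, acute phase proteins, the circadian clock and glucocorticoid targets vary in lung tissue with inflammation, time of day and stress.

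Values are normalized log2 intensities, on which a difference of 1 is a factor of 2, and changes are 6 months minus 4 months. The control arrays detected 55.1 to 56.9% of their probes, and 10541 named genes were tested. The defining markers of lung epithelium were bright on every control array. The surfactant gene Sftpc lay at 14.10, 13.98 and 14.01 at 6 months, against 14.16, 14.18 and 14.20 at 4 months. The club cell secretory gene Scgb1a1 lay at 14.69, 14.67 and 14.74 at 6 months, against 14.71, 14.74 and 14.71 at 4 months, and the alveolar type 1 gene Ager at 13.61, 13.36 and 13.63 against 13.52, 13.75 and 13.41. The changes of Scgb1a1 and Ager were within 0.03 of 0, and neither they nor Sftpc passed. All 6-month arrays of Sftpc lay below its 4-month arrays, by -0.15 on average. Scgb1a1 lies near the top of the scale that normalization shares between arrays, which limits how far it can differ.

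Few genes separated the ages beyond the spread between arrays. With limma and Benjamini-Hochberg adjustment, 6 genes passed an adjusted p of 0.05 (0.0569% of those tested), 1 higher (0.00949%) and 5 lower (0.0474%) at 6 months. They were Arhgap10, which rose, and Xist, Hsd3b2, Cemip2, Saa3 and Apoa2, which fell. Many more lay near that limit: 140 genes had an adjusted p below 0.1 (1.33%), 64 higher (0.607%) and 76 lower (0.721%) at 6 months, a wider limit chosen after seeing the data. Without adjustment, 1874 genes (17.8%) had a p below 0.05. The 3 arrays of one age lay wholly on one side of the 3 of the other for 1762 genes (16.7%), 850 higher (8.06%) and 912 lower (8.65%) at 6 months. Single arrays decided how many passed: 575 genes did without control 4-month replicate 3 (5.45%; 242 higher, 2.3%, and 333 lower, 3.16%), 58 without 6-month replicate 1, 30 without 4-month replicate 2 and 0 without 4-month replicate 1. Fitted on the 6 control arrays alone, limma passed 0 of 10012 genes, of which 1252 had an unadjusted p below 0.05, and the smallest adjusted p was 0.256.

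Xist, the noncoding RNA that coats the inactive X chromosome of female cells, had the smallest adjusted p. It lay at 5.65, 5.03 and 5.73 at 6 months, against 7.04, 7.09 and 7.42 at 4 months. The groups did not overlap, and Xist fell by 1.71 on the log2 scale (95% interval -2.13 to -1.29, adjusted p = 0.0159). A second Xist probe fell by 1.00 (adjusted p = 0.0300). All 6 control arrays detected Xist, but its 6-month values were dim: the lowest detected signal on those arrays was 4.87 to 4.93. The Y-linked genes Kdm5d and Eif2s3y, looked up after the Xist values were seen, were detected on 0 of the 6 control arrays, and the probe of Uty on 2 arrays at 6 months and 3 at 4 months. Over the series, whose mice are all given as female, the Uty probe was detected on 10 of 12 arrays and the other 2 probes on 0. What the Uty probe read was not tested.

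Hsd3b2 belongs to a family of near-identical enzymes of steroid hormone synthesis, whose transcripts its 1 probe may not tell apart. It lay at 9.01, 8.65 and 8.56 at 6 months, against 10.57, 11.17 and 9.87 at 4 months. It fell by 1.79 (95% interval -2.35 to -1.24, adjusted p = 0.0300), and the 4-month arrays spread more (SD 0.65) than the 6-month arrays (SD 0.24). Cemip2, a membrane protein linked to the breakdown of hyaluronan in the tissue matrix, lay at 10.43, 10.39 and 10.24 at 6 months and at 11.33, 11.23 and 11.08 at 4 months. It fell by 0.86 (adjusted p = 0.0300). Its other probes moved the same way, by -0.88 (adjusted p = 0.0606) and -0.44 (adjusted p = 0.187).

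Saa3 encodes a serum amyloid A protein of the acute phase that mice make outside the liver, in macrophages and epithelium among others. It lay at 5.93, 6.60 and 6.68 at 6 months, against 8.03, 8.92 and 8.13 at 4 months. This was the largest change among all genes tested, a fall of 1.96 (95% interval -2.62 to -1.30, adjusted p = 0.0463). Its promoter is shown because the gene is induced by inflammatory signals through factors of the C/EBP family, whose motif TTNNGCAA was searched on both strands. The window is that of RefSeq around the gene's start, chr7:46715627-46715926 on the minus strand of GRCm38.p6, and capitals mark the 1 match.
Saa3: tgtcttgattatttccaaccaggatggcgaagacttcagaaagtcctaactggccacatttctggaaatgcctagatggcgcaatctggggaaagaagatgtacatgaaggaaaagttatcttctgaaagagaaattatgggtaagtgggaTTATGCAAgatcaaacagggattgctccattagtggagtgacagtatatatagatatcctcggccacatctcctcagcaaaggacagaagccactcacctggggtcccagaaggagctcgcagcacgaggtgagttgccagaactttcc
Of 32851 RefSeq promoters of the same length, 10.8% hold that motif. A motif of NF-kappaB, GGG and TTTCC with 2 free bases between them, is present in 1.63% and had no match in this window. A match is a stretch of letters and not a measured binding site.

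The remaining 2 genes that passed were dim at both ages. Arhgap10 lay at 5.54, 5.52 and 5.41 at 6 months. At 4 months it was not well above background on any array, so it was at least 1.51-fold higher at 6 months (measured means 5.49 and 4.79, adjusted p = 0.0300). Apoa2, an apolipoprotein of high-density lipoprotein made mainly by liver, was not well above background on any 6-month array and lay at 5.64, 5.79 and 5.34 at 4 months. It was at least 1.61-fold lower at 6 months (measured means 4.62 and 5.59, adjusted p = 0.0300). On the level of single probes, 9 of 15490 passed (0.0581%). Besides those named, they were 1 unnamed probe, at -1.29, and a second probe of Coq10b, at 0.84.

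**Figure D1:**
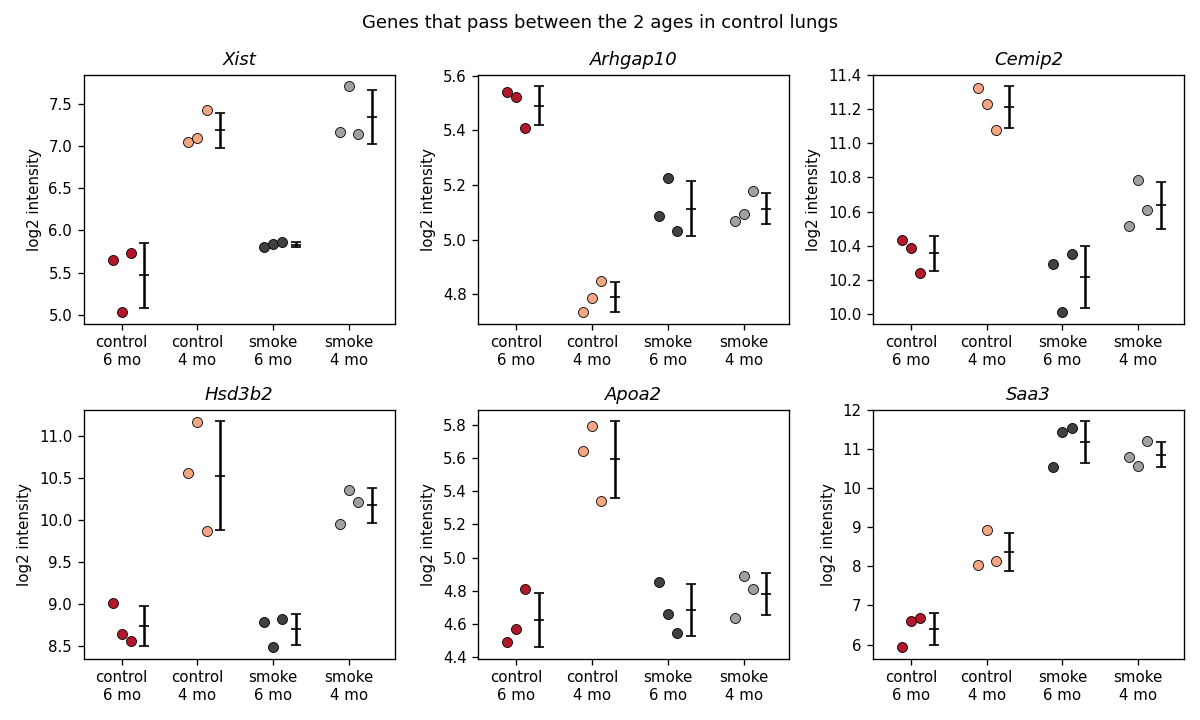
Log2 intensity of the 6 genes that passed between the ages in control lungs, each point an array, with the mean and SD of 3 arrays beside each group; smoke-exposed arrays are drawn for reference and each panel has its own scale. Xist and Hsd3b2 lie lower at 6 months in both treatments, while Saa3 lies between 10.54 and 11.53 on all smoke-exposed arrays.

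The genes described next did not pass (adjusted p 0.0579 to 0.0676). They have the smallest p-values in each direction among genes picked for groups that do not overlap, up to 12 each way with those that passed, and other genes with an adjusted p in that range are not listed here. Tnfrsf10b, the mouse receptor for the death ligand TRAIL, lay at 7.86, 8.01 and 8.11 at 6 months against 6.74, 6.09 and 7.26 at 4 months, a difference of 1.30. Errfi1, an inhibitor of the EGF receptor, lay at 12.61, 12.86 and 13.44 against 11.52, 11.90 and 11.95, a difference of 1.18. Bbox1, the last enzyme of carnitine synthesis, differed by 0.91, Coq10b, which binds coenzyme Q in mitochondria, by 0.96, and Tomm70a, a receptor for protein import into mitochondria, by 0.67. Rpf2, a ribosome assembly factor, differed by 0.56 with 6-month arrays at 7.50, 7.51 and 7.50 against 6.84, 6.93 and 7.06. Zfand1 (0.73), Tmem251 (0.95), Tex11 (0.84), Trdmt1 (0.69) and Mal (0.62) were the remaining higher genes of this selection, and another probe of Tmem251 and of Trdmt1 moved the other way.

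The lower genes short of the threshold were picked in the same way. Elastin (Eln), the core of the elastic fibres that recoil the lung, lay at 9.26, 9.14 and 9.03 at 6 months, against 9.90, 9.78 and 9.99 at 4 months, a difference of -0.75. Spon2, a secreted matrix protein, averaged 11.73 ± 0.14 at 6 months and 12.68 ± 0.28 at 4 months (SD, n = 3 each), a difference of -0.95. Gja4, a gap junction protein of arterial endothelium, differed by -0.75. Igsf3 (-0.86), the small RNA binding protein Ago3 (-0.58), the autophagy gene Atg2a (-0.56) and the leukocyte adhesion gene Jaml (-1.07) were the others.

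The arrays of one age were not uniformly closer to each other than to the other age. The root mean square difference between 2 arrays over all genes was 0.300 to 0.349 within 6 months, 0.342 to 0.383 within 4 months, and 0.298 to 0.443 between ages. The closest pair of all was 6-month replicate 1 with 4-month replicate 3 (0.298). Replicate 3 at 4 months lay on average 0.320 from the 6-month arrays and 0.363 from its own group, while each of the other 5 arrays lay closer to its own age. Arrays 1 and 2 at 4 months lay 0.425 and 0.409 from the 6-month arrays. The labels give no chip position or scan date, so a batch within these groups or between the ages was not tested.

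**Figure D2:**
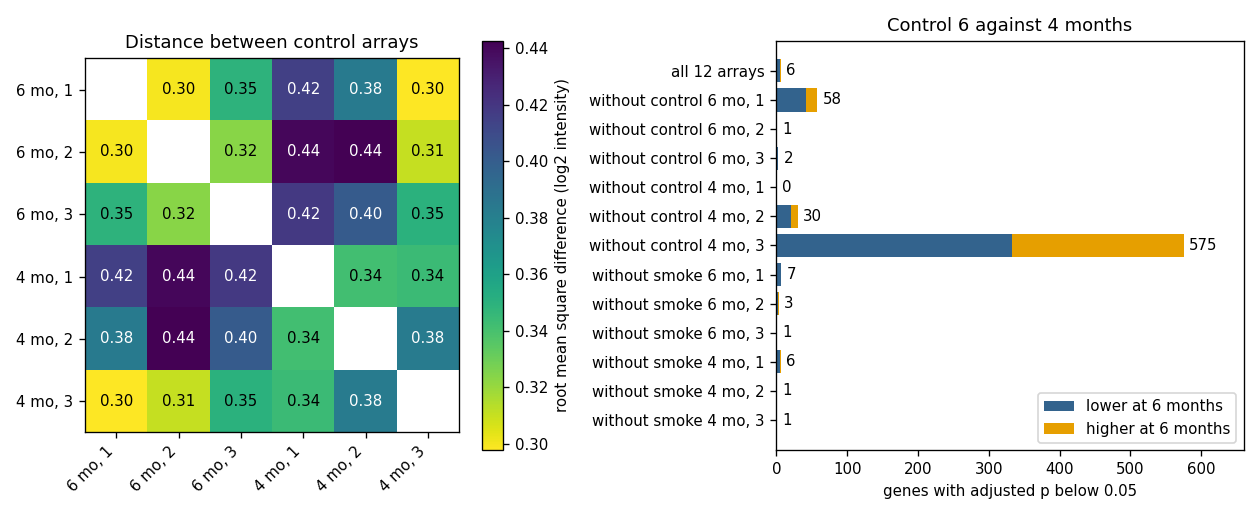
Left, the root mean square log2 difference over all genes for each pair of control arrays; right, the number of genes with an adjusted p below 0.05 between control ages with all 12 arrays and with each array left out. The 4-month replicate 3 is about as close to the 6-month arrays as they are to each other, and leaving it out gives 575 genes against 6 with all arrays.

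The spread set what could be seen. The median SD of a gene was 0.160 at 6 months and 0.173 at 4 months, and the median 95% interval of a change reached 0.304 to either side. For 10036 genes (95.2%), the whole interval lay between -1 and 1. Changes of at least 1 were measured for 46 genes, 5 higher and 41 lower at 6 months, of which 3 passed and 20 overlapped between ages. Of the 219 genes with a pooled SD of at least 0.5, 0 passed with limma. The arrays of 21 of them did not overlap, beside 1762 of all 10541 genes (16.7%). These genes were picked by a spread that enters the limma test and makes overlap likelier, so low counts follow from the choice.

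Granulocyte genes were among the most variable, and their highest values lay on single 4-month arrays. Camp, an antimicrobial peptide stored in neutrophil granules, lay at 5.42, 8.22 and 7.53 at 6 months, against 12.27, 7.60 and 6.53 at 4 months. Ngp, another neutrophil granule protein, lay at 5.26, 8.07 and 6.89 against 11.76, 6.73 and 6.54. Control 4-month replicate 1 stood above the mean of its group's other arrays by 5.20 for Camp, 5.13 for Ngp, 3.30 for the iron-binding granule protein Ltf and 3.05 for Prg2, the eosinophil major basic protein. The same array was high for Cd177 (10.22, against 7.30 and 8.26 on the other 4-month arrays) and Prss34, a protease of basophils and mast cells (7.24, against 4.75 and 4.62). Replicate 3 at 4 months was highest in other genes: Clca1, a goblet cell product, by 4.56, the eosinophil ribonuclease Rnase2a by 3.04 and Retnla, a gene of type 2 immune responses, by 2.26. Replicate 2 at 4 months was low in Ngp (-2.43), Lcn2 (-2.27) and the adipose and muscle enzyme Car3 (-2.24).

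**Figure D3:**
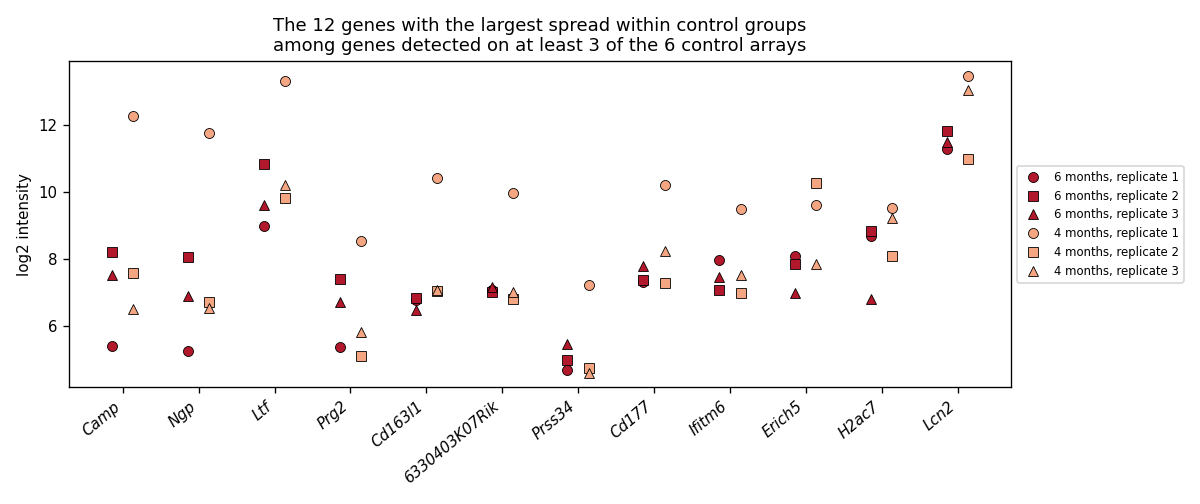
Log2 intensity of the 12 genes with the largest spread within control groups among genes detected on at least 3 of the 6 control arrays, each point an array. Clca1 and Rnase2a (pooled SD 1.92 and 1.24), detected on fewer and highest on 4-month replicate 3, are not drawn. The circle of 4-month replicate 1 lies highest in 11 of the 12 genes, and for Camp it lies at 12.27 where the other 5 arrays lie between 5.42 and 8.22.

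The 6-month arrays stood apart partly in the same granulocyte genes. From the mean of its group's other arrays, 6-month replicate 1 differed by -2.45 for Camp and -2.23 for Ngp. Replicate 2 differed by 2.00 for Ngp, 1.74 for Camp and 1.55 for Ltf. Replicate 2 was also high for Fkbp5, a target of the glucocorticoid receptor (8.07, against 6.26 and 6.33 on the other 6-month arrays). Replicate 3 was high for the membrane protein gene Tmem87a by 2.23 and for Fosb, an immediate early gene, by 1.75, and low for the histone gene H2ac7 by 1.96 (6.82, against 8.70 and 8.85). Replicate 1 was high for Zeb2, a transcriptional repressor, at 9.82 against 7.92 and 7.89, while Zeb2 lay at 10.17, 10.07 and 8.84 at 4 months. The same order, 6-month replicate 1 highest of its age and 4-month replicate 3 lowest of its age, held for 10 of the 20 genes with a change of at least 1 and overlapping groups. Genes more than 1 away from their group's other arrays numbered 70, 32 and 77 for the 6-month arrays and 72, 101 and 60 for the 4-month arrays.

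Gene lists of cell types and pathways were described by how many tested members did not overlap between ages and by their median change, beside 8.06% higher and 8.65% lower and a median of -0.01 over all genes tested. Besides Saa3, no member of any list passed. Neutrophil genes had the lowest median, -0.93 over 15 genes, yet 2 of them (Mmp9 and Csf3r) did not overlap. Their summed linear intensity ran 17718 to 24511 on the 6-month arrays and 19625 to 78487 on the 4-month arrays. Their median lay 1.37 above the mean of the 6 arrays on 4-month replicate 1, and on replicate 2 it lay at -0.47. The median change was -0.28 without 4-month replicate 1 and -1.45 without replicate 2. Mmp9, the gelatinase of neutrophil granules, lay at 7.84, 7.72 and 7.66 at 6 months against 10.26, 8.16 and 9.06 at 4 months, a difference of -1.42 that did not pass (adjusted p = 0.200).

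Matrix genes lay lower at 6 months in larger numbers. Of 25 collagen and elastic fibre genes, 9 did not overlap and were lower and 2 were higher, with a median of -0.24. Besides Eln, they held Serpinh1, the collagen chaperone, at 7.53, 7.72 and 7.71 against 8.27, 8.38 and 8.24 (difference -0.65), and Col1a1, a chain of the main fibrillar collagen, at 8.14, 8.18 and 8.33 against 8.76, 8.67 and 9.02 (-0.60). The basement membrane chain Col4a1 differed by -0.42 and Col5a1 by -0.37, whereas Col3a1 (-0.17) and Col6a1 (-0.08) overlapped. Lox, which crosslinks both fibre types, lay the other way, at 9.25, 9.42 and 9.46 against 8.73, 8.81 and 9.10 (0.50). In 3 of these, Eln, Serpinh1 and Col1a1, the adjusted p was below 0.1, as it was for Lox. Of the metalloproteinases and their inhibitors, 4 of 17 did not overlap, all lower. Mmp14, which cuts collagen at the cell surface, differed by -0.80, Mmp2 by -0.52, and the inhibitor Timp1 by -0.92, with Timp1 at 7.15, 7.51 and 7.72 against 8.07, 8.91 and 8.19. The list of fibroblast and mesenchyme genes, which also holds smooth muscle genes, had a median of -0.00 over 19 genes. Of these, 3 did not overlap and were lower (15.8%): Npnt (-0.74), Pi16 (-0.46) and Dcn (-0.29). Inmt (0.27), the 1 higher gene without overlap, lay the other way. The part of fibroblast content in the matrix genes was not tested.

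Some other acute phase and complement genes also lay lower at 6 months. Of 17, Saa3 included, 6 did not overlap, all lower, with a median of -0.11, which was -0.05 without 4-month replicate 3 and -0.23 without 6-month replicate 2. The copper carrier ceruloplasmin (Cp) lay at 10.17, 10.07 and 9.97 at 6 months, against 10.57, 10.59 and 11.02 at 4 months, a difference of -0.66. The complement genes C4b (-0.62) and Cfb (-0.75), the endotoxin binding protein Lbp (-0.34) and Itih4 (-0.50) did not overlap either. Of the 17, 13 had a negative and 4 a positive change. Among those that overlapped, Hp lay at 0.19, Serpina3n at 0.01 and Serping1 at -0.04. Cytokines and chemokines had a median of -0.36 over 27 genes, which was -0.23 without 4-month replicate 1, -0.22 without replicate 3 and -0.23 without 6-month replicate 1. Of the 27, 3 did not overlap and were lower (11.1%), a share like the 8.65% of all genes. They were Csf1 (-0.58), Il1rn (-0.47) and Ccl4 (-0.37). The neutrophil attractant Cxcl1 overlapped, at 6.14, 6.45 and 6.66 against 8.76, 6.47 and 7.51, highest on the array on which the neutrophil genes were highest. The part of neutrophil content in these lists was not tested. Of 21 interferon response genes, 5 did not overlap and were lower (median -0.19, Oas2 at -0.52), and of 19 dendritic cell and MHC class II genes also 5 (median -0.21, or -0.12 without 4-month replicate 3, the integrin Itgae at -0.60).

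Of the 17 genes of cell division, 15 lay lower at 6 months and 2 higher. Of 17, 6 did not overlap, all lower, with a median of -0.24, which was -0.11 without 6-month replicate 1 and -0.43 without 4-month replicate 2. Top2a, the topoisomerase of dividing cells, lay at 5.42, 5.67 and 6.04 against 6.78, 6.15 and 6.78 (-0.86), and Cdc20 (-0.52), Tk1 (-0.60), Uhrf1 (-0.47) and Rrm2 (-0.48) did not overlap. Another probe of Cdc20 and of Tk1 moved the other way. The 2 higher genes, Pcna (0.63) and Tyms (0.28), overlapped. The median level of the list also overlapped between ages, at -0.06 on 4-month replicate 2 and -0.01 on 6-month replicate 3. In smoke-exposed lungs the median change of the list was 0.26. Pigr, which carries immunoglobulin A across epithelium, lay at 8.16, 7.34 and 6.75 against 9.62, 8.42 and 8.94, a difference of -1.58 (adjusted p = 0.0879).

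The lists with at least 5 members higher without overlap were glucocorticoid targets, heat shock genes, NRF2 and antioxidant genes, and the respiratory chain. Adipocyte genes (median 0.18 over 15) and aryl hydrocarbon receptor targets (0.17 over 5) had medians as high, with 2 and 1 higher members that did not overlap. Of 18 glucocorticoid targets, 7 did not overlap and were higher and 1 was lower, with a median of 0.37. Besides Errfi1, Tsc22d3, an anti-inflammatory mediator of the hormone, lay at 12.05, 12.54 and 12.47 against 11.56, 11.77 and 11.46 (0.76). The cell cycle inhibitor Cdkn1a differed by 0.75 and Nfkbia, which holds NF-kappaB in the cytoplasm, by 0.50. Pik3r1 lay the other way, at 9.92, 8.73 and 8.75 against 10.36, 10.82 and 10.03 (-1.27). Fkbp5 overlapped (0.44), as its high value was on 1 array. Of 18 cytosolic heat shock genes, 6 did not overlap, all higher, with a median of 0.16 that was 0.09 without 4-month replicate 1 and 0.33 without 6-month replicate 1. Hspa1a, the inducible HSP70, lay at 8.28, 9.31 and 9.50 against 7.32, 8.18 and 7.49 (1.37), and Dnajb4, a co-chaperone, differed by 0.76. The 26 NRF2 and antioxidant genes held 6 higher and 1 lower (median 0.16), with Fmo2 at 0.57, Nqo1 at 0.45 and Hmox1, the lower one, at -0.48. The 19 respiratory chain genes held 5 higher and 0 lower (median 0.18, or 0.11 without 4-month replicate 2), led by Cox7b at 0.77.

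Of 18 circadian clock genes, 2 did not overlap and were higher and 1 was lower, a share like that of all genes. The 2 higher ones were Dbp and Tsc22d3, and Tsc22d3 is also counted among the glucocorticoid targets above. Dbp, the clock output factor with the widest daily swing in many tissues, lay at 8.77, 9.56 and 9.96 at 6 months, against 7.76, 8.21 and 8.32 at 4 months (1.33, adjusted p = 0.0676). Npas2, a clock activator that peaks opposite to Dbp, lay at 5.71, 5.22 and 5.28 against 6.21, 6.07 and 6.06 (-0.71). Per1 (0.76), Nr1d2 (0.52), Nr1d1 (0.41), Per2 (0.35) and Arntl (-0.20) overlapped. So did Cry2 (-0.18), Per3 (0.16), Ciart (-0.14), Nfil3 (0.03) and Clock (-0.02), and the remaining members. The time of day at which tissue was taken is not given in the labels, and its part in these values was not tested.

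Most cell type lists had medians near 0. They were -0.02 for 18 alveolar type 2 genes, -0.03 for 9 alveolar type 1 genes and -0.05 for 23 endothelial genes. Club cell genes had -0.02 over 13 and ciliated cell genes 0.12 over 14. Of the alveolar type 2 genes, 4 did not overlap and were lower. These were Sftpc, Sftpd, Scd1 and Hc, at -0.15, -0.29, -0.32 and -0.28. B cell genes had a median of 0.16, with 1 of 16 not overlapping (Ms4a1, 0.57, higher), and T cell genes -0.16, with 1 of 17 (Bcl11b, -0.77, lower). Red cell and platelet genes lay at -0.05 and -0.00. The senescence gene Cdkn2a was too dim to be tested.

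**Figure D4:**
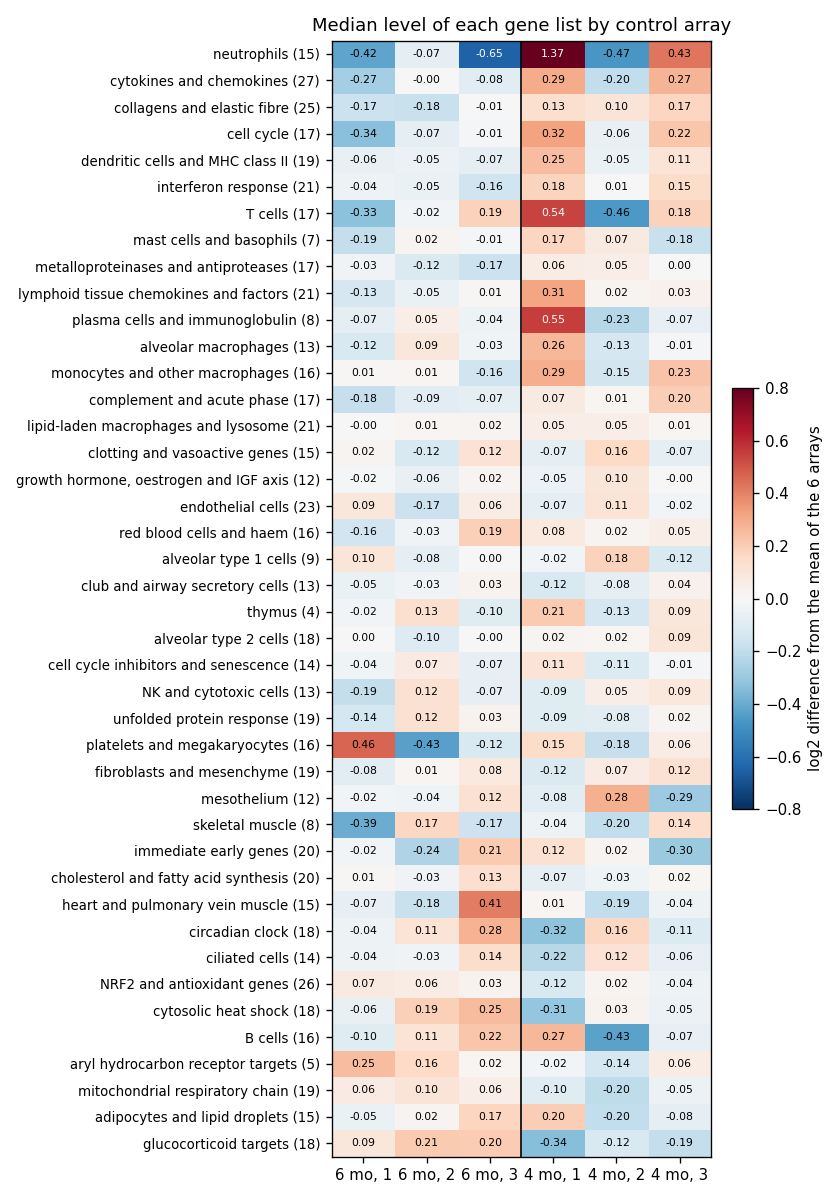
Median log2 difference from the mean of the 6 control arrays for each gene list (rows, with the number of genes tested) on each control array (columns), ordered by the median change; colours saturate at 0.8 while the printed values do not. Neutrophil genes, at the top, range from 1.37 to -0.47 within the 4-month arrays, and glucocorticoid targets, at the bottom, are above 0 on all 6-month and below 0 on all 4-month arrays.

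Control 4-month replicate 3 lay closer to the 6-month arrays (0.320) than to its own group (0.363). Leaving out the 4-month array most like 6 months tends to widen the difference between ages. The counts without it are therefore given as a description and not as support for any list. Without control 4-month replicate 3, more list members passed, beside 5.45% of all genes. The lists with the most were 4 of 25 collagen and elastic fibre genes (Lox higher, and Eln, Serpinh1 and Tnc lower), 4 of 17 acute phase and complement genes (Saa3, Cp, C4b and Cfb, lower), 3 of 18 glucocorticoid targets (Errfi1 and Tsc22d3 higher, Pik3r1 lower), 4 of 21 genes of lipid-laden macrophages and the lysosome (2 higher and 2 lower, Ctsl, Lipa, Hexa and Fabp5) and 3 of 18 clock genes. In 6 lists 2 members passed: metalloproteinases and inhibitors (Timp1 and Mmp14, lower), cell cycle, lymphoid tissue factors, immediate early genes, the unfolded protein response and alveolar macrophages. Each of the remaining lists had at most 1. In this fit 0 of the 15 neutrophil genes passed.

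The smoke-exposed arrays give a contrast of the same ages in samples that share none of the control arrays. The titles do not say how long these mice were exposed, and that may also differ between the ages. Collection or array runs that differ between the ages would be common to both treatments and cannot be told apart from age. There 2 genes passed (0.019%), Xist and Eln, while 1141 had an unadjusted p below 0.05 (10.8%) and 22.2% did not overlap between ages. Xist fell by 1.51 in smoke-exposed lungs, at 5.80, 5.83 and 5.86 at 6 months against 7.16, 7.71 and 7.14 at 4 months (adjusted p = 0.0314). Eln fell there by 1.23 (adjusted p = 0.00582). Hsd3b2 lay at 8.79, 8.49 and 8.82 against 9.95, 10.36 and 10.22, a difference of -1.48 that did not pass (adjusted p = 0.131), and Spon2 differed by -0.96.

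Several other genes named above had differences near 0 or of the opposite sign in smoke-exposed lungs. Saa3 lay at 10.54, 11.44 and 11.53 at 6 months against 10.80, 10.55 and 11.20 at 4 months in smoke-exposed lungs, a difference of 0.32. Arhgap10 (0.00) and Apoa2 (-0.09) were level there, Errfi1 (-0.38), Tsc22d3 (-0.43) and Lox (-0.68) lay lower, and the median of the glucocorticoid targets was -0.38. The test of the difference between the age changes passed for 0 genes with limma (0%), while 875 (8.3%) had an unadjusted p below 0.05, and the adjusted p of that difference was 0.260 for Saa3, 0.144 for Lox and 0.260 for Tsc22d3. Across the 10541 genes, which are not independent replicates, the changes at the control and smoke-exposed arrays correlated at r = 0.27 (Spearman 0.27). Of the 140 control genes with an adjusted p below 0.1, 105 (75%) had the same sign in smoke-exposed lungs, against 59.2% of all genes. For 49 of the 140, the ages did not overlap in the same direction in both treatments. Over all genes, 22.2% did not overlap in smoke-exposed lungs in either direction. The share of all genes in a matching direction was not computed, so the 49 has no like share beside it.

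**Figure D5:**
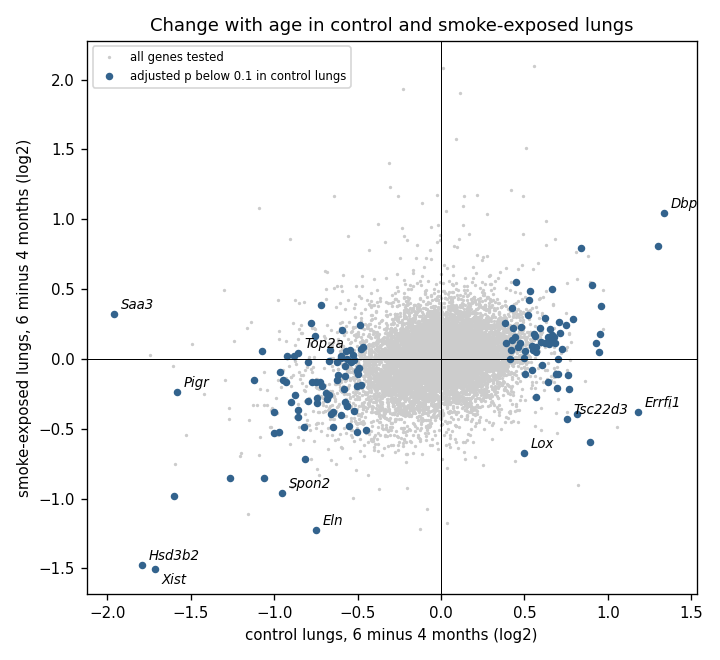
Change from the 4-month to the 6-month arrays in control lungs (horizontal, log2) and in smoke-exposed lungs (vertical, log2), each point a gene; blue marks the 140 genes with an adjusted p below 0.1 in control lungs. Xist, Hsd3b2, Eln and Spon2 lie low on both axes and Dbp high on both, while Saa3, Errfi1, Tsc22d3 and Lox have opposite signs.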

How the data were processed

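RNA of 12 lung samples was hybridised to Illumina mouse bead arrays. The authors deposited probe intensity on a linear scale, not normalized, with a detection p-value per probe, per the file headers. From its values, their second deposited table holds normalized linear intensity. How scanning, background subtraction and that normalization were done is not given in the sources used here.

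The intensity of 25697 probes was turned into log2 values by neqc of limma 3.58.1 in R 4.3.3, which corrects the background, adds 16 and applies quantile normalization over all 12 arrays. Authors' values gave log2 changes correlated with these at r = 0.995 across probes. A probe was kept if 3 or more of the 12 arrays gave it a detection p-value below 0.05 (15490 probes, of which 900 are unnamed here). Probes were named from the platform annotation with symbols updated through a RefSeq table. The brightest probe stood for each of the 2901 genes with several.

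limma fitted 1 mean per group to all 12 arrays (8 residual and 4.54 prior degrees of freedom). All p-values are two-sided, and adjusted p-values cover all probes kept. A gene not detected on any array of an age has a bound, set at the lowest detected signal of each array. The number of arrays limits the precision. The script was checked on simulated data.

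Named genes are those that passed, the 12 higher and 12 lower with the smallest p whose groups did not overlap, up to 4 per list, those with the largest spread, and a fixed set. Nonoverlapping list members and the Y-linked genes named beside them were picked after their values were seen. The members and the 42 lists were chosen with earlier results of these data known. Same-numbered replicates of the 2 ages did not deviate together (correlations -0.09, -0.22 and -0.20), and the labels tie no numbers to a shared litter or day. Promoter sequences are those of RefSeq.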

Additional observations from a re-analysis of the deposited data

How the results depend on the processing

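The number of genes that passed between control ages, 6 with all choices as described, moved with most of them. It was 12 with the authors' normalized values, 20 with an offset of 50, 2 with no filter on dim probes, 3 with probes detected on all 6 control arrays, 175 (74 higher, 101 lower) with array weights, 26 with an intensity trend, 0 on the 6 control arrays alone and 140 at an adjusted p below 0.1, a limit chosen after seeing the data. With the replicate block, which pairs samples by number only, it was 0 (smallest adjusted p 0.0639, 1732 genes at an unadjusted p below 0.05). Leaving out 1 array gave 0 to 575: 58, 1 and 2 without control 6-month replicates 1, 2 and 3, 0, 30 and 575 without control 4-month replicates 1, 2 and 3, and 1 to 7 without a smoke-exposed array. All 6 genes were among the 12, the 26, the 175 and the 575. Array weights were 1.73, 0.583 and 0.422 for the 4-month control arrays. Each of the 6 kept its direction throughout, and Xist kept its call in 21 of 24 alternatives, Arhgap10 in 14 of 23, Cemip2 and Hsd3b2 in 14 of 24, Apoa2 in 11 of 23 and Saa3 in 10 of 24. The age contrast in smoke-exposed lungs passed 2 genes, and 1 with no further background correction, 6 with scaling to equal medians, 1 with no filter, 372 with array weights, 1 with the replicate block and 0 to 7 with 1 array left out. The difference between the age changes passed 0, and 1 with an offset of 50, 1 with scaling to equal medians, 13 with array weights, 1 with an intensity trend, 2 with the mean over a gene's probes and 0 to 2 with 1 array left out. Under the filters and the 6-array fit fewer or other genes and samples are tested; for the other changes the cause was not tested. The share of genes without overlap stayed between 14.4 and 17.2%, against 16.7%. Dim genes are limited by background: the offset compresses their changes, and groups of 3 arrays are too small for a check of single outlying samples or for an exact permutation p below 0.1.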
